A study of Arabidopsis thaliana with 8 samples.

Results

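Plastid-encoded transcripts are described here in Arabidopsis thaliana seedlings that lack 1 or both of the Polycomb proteins CURLY LEAF and SWINGER. The 69 probe sets whose single annotated gene lies on the plastid genome were taken from the 22810 probe sets of the Affymetrix ATH1 array. No measured value decided which probe sets entered, but this set was chosen with earlier results of these data known. The probe sets stand for 69 genes. By the stem of the gene symbol these are 5 psa, 15 psb, 6 pet, 6 atp, 10 ndh, 4 rpo, 7 rpl and 8 rps genes, rbcL, and 7 others (accD, clpP, matK, ccsA, cemA, ycf3 and ycf4). A further 8 probe sets are annotated with a pair of plastid gene copies and were left out by that rule.

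The series compared bulked, whole seedlings of 4 genotypes with 2 arrays each. Beside wild type (Columbia, Col-0) there were seedlings with a T-DNA insertion in 1 gene, labelled clf-28 or swn-7, and a double mutant (clf-28 swn-7) with both insertions. All seeds were cold-treated for 3 days at 4 degrees and grown on agar plates at about 23 degrees and 70% humidity, for 10 days in wild type and both single mutants and for 12 days in the double mutant, and every sample is labelled with growth stage 1.03. Age and genotype therefore cannot be told apart in the double mutant. No probe set carries the symbol CLF or SWN in the annotation used, so the labels could not be set against the level of the mutated genes. Whether replicate arrays came from independent cultures is not stated in the labels. Each p-value therefore rests on the spread of replicate arrays alone, and that spread may be technical.

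CURLY LEAF and SWINGER are histone methyltransferases of Polycomb repressive complex 2, which marks nuclear genes for silencing; plastid DNA carries no histones. The plastid genome encodes core subunits of the photosystems (psa, psb), the cytochrome b6f complex (pet), the ATP synthase (atp), the NADH dehydrogenase-like complex (ndh), the large subunit of Rubisco (rbcL), a bacterial-type RNA polymerase (rpo) and part of the plastid ribosome (rpl, rps), while the partner subunits come from the nucleus. Most photosynthesis genes are read by the plastid-encoded polymerase, and a few housekeeping genes such as rpoB and accD mainly by a nuclear-encoded one. Many plastid genes lie in operons and are processed from long shared transcripts.

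Each value is the deposited signal of a probe set, an intensity on a linear scale, with the same trimmed mean on every array. The labelling named in the protocols (one-cycle) starts from an oligo(dT) primer in its standard form, and most plastid transcripts carry no stable poly(A) tail. How much of the plastid RNA was primed was not measured, so a signal stands for the primed part. Signals of different genes are not compared with each other. Signals under a floor of 10.0 were set to the floor before log2 was taken, and all 69 plastid probe sets lay above it on at least 2 arrays. Pairs of signals below are replicate 1 and replicate 2. Since the samples are whole seedlings, fewer cells with plastids and less plastid RNA per cell cannot be told apart.

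One array stood apart before any genotypes were compared. On swn-7 replicate 2 the median plastid probe set was 2.90 log2 units below its wild-type mean, with a range from -5.96 for rps4 to 0.14 for psbM. On swn-7 replicate 1 the median was -0.03. Of the 69 plastid probe sets, 33 were at least 8-fold below their wild-type mean on swn-7 replicate 2, against 47 (0.271%) of the 17332 probe sets tested on the whole array. The medians were 0.22 and -0.22 on the wild-type arrays, -0.39 and -0.91 in clf-28, and -0.82 and -0.49 in the double mutant. The array of clf-28 replicate 2 was the next lowest, with 30 plastid probe sets at least 2-fold below their wild-type mean, where 2.84% of all tested probe sets were. Over all tested probe sets the median stayed within -0.01 and 0.15 on every array.

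**Figure D1:**
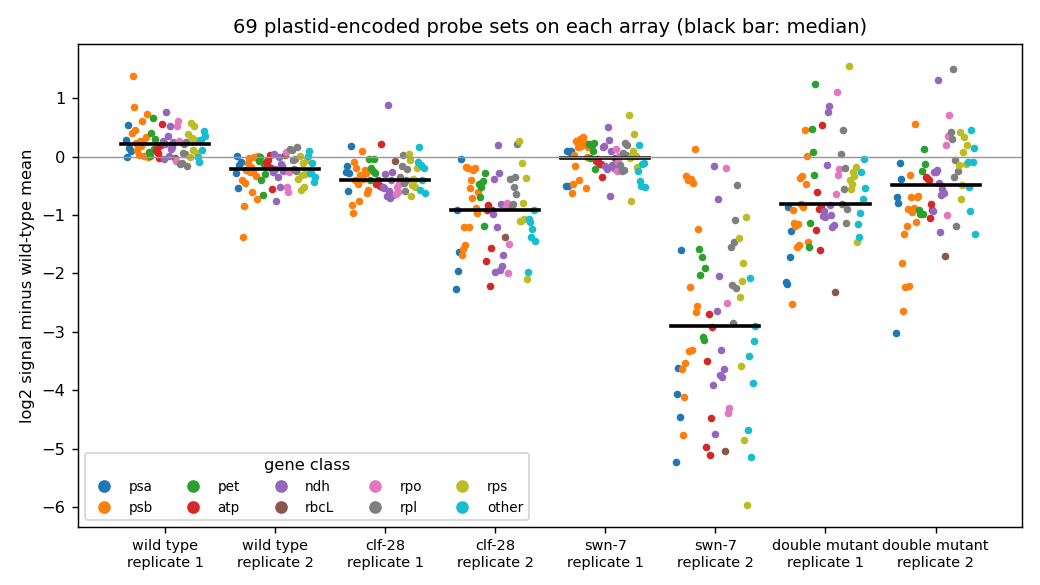
Each point is 1 of the 69 plastid probe sets on 1 array, as log2 signal minus its wild-type mean (vertical axis, log2 units), coloured by gene class; black bars are medians. The median lies at -2.90 on swn-7 replicate 2 and between -0.91 and 0.22 on the other 7 arrays.

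On swn-7 replicate 2 green-tissue markers were close to those of wild type and the single mutants, and RNA integrity controls to those of all arrays. The 4 green-tissue markers measured, Rubisco activase (RCA), the antenna gene LHCB4.1, SBPASE and phosphoribulokinase (PRK), had signals of 3701, 3913, 1337 and 2104 there. Their summed signal was 11055 on that array and 14501 on swn-7 replicate 1. With both swn-7 arrays their median change against wild type was -0.06. RCA ranged from 3808 to 5624 on the other arrays of wild type and the single mutants, and the other 3 markers lay within the range of those arrays. The difference between the 3' and 5' control probe sets, a measure of RNA integrity, was 3.99 for actin on that array, within the 3.60 to 4.63 of all 8 arrays. It was 0.32 for GAPDH (range 0.22 to 0.97) and 1.29 for ubiquitin (range 1.09 to 1.71). The 5S ribosomal RNA control was lowest on swn-7 replicate 2, at 3.26 on the log2 scale with a range up to 7.69, and the 25S control read 7.19 in a range from 6.00 to 11.71. The part of these controls in the low plastid signals was not tested. The 8 probe sets annotated with a pair of plastid gene copies, which were not among the 69, had a median of -2.12 on swn-7 replicate 2 and 0.08 on swn-7 replicate 1, of 0.25 and -0.25 in wild type, of -0.23 and -0.69 in clf-28, and of -0.10 and 0.13 in the double mutant.

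The difference between the swn-7 arrays was large for most plastid genes and small for a few that lie side by side. All 69 were lower on replicate 2 than on replicate 1, and 61 at least 2-fold lower, against 1.03% of all tested probe sets. The lowest were rps4 (ribosomal protein S4) at -5.78, rps2 at -5.24, then rbcL, and the ATP synthase genes atpF at -4.98 and atpA at -4.89. The 8 genes less than 2-fold lower were psbM (-0.09), rpoA (-0.32), ndhC (-0.35), psbF (-0.56), psbJ (-0.57), psbE (-0.59), rpl36 (-0.70) and psbL (-0.80). Of these, psbJ, psbL, psbF and psbE follow one another on the genome, between petA at -1.80 and petL at -3.38, and rpoA lies next to rpl36. The genes that follow rpl36 in order, rpl14, rpl16, rps3, rpl22 and rps19, ranged from -1.04 to -1.96. By contrast the stretch with atpA, atpF, atpH, atpI, rps2, rpoC2, rpoC1 and rpoB ranged from -2.26 for rpoB to -5.24 for rps2. In atpI, rpoB and ndhH the signal on swn-7 replicate 2 lay under the floor, so their differences are understated. Over 64 pairs of adjacent plastid genes the swn-7 replicate difference differed by a median of 0.79 log2 units, against 1.39 over all 2346 pairs of plastid genes.

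**Figure D2:**
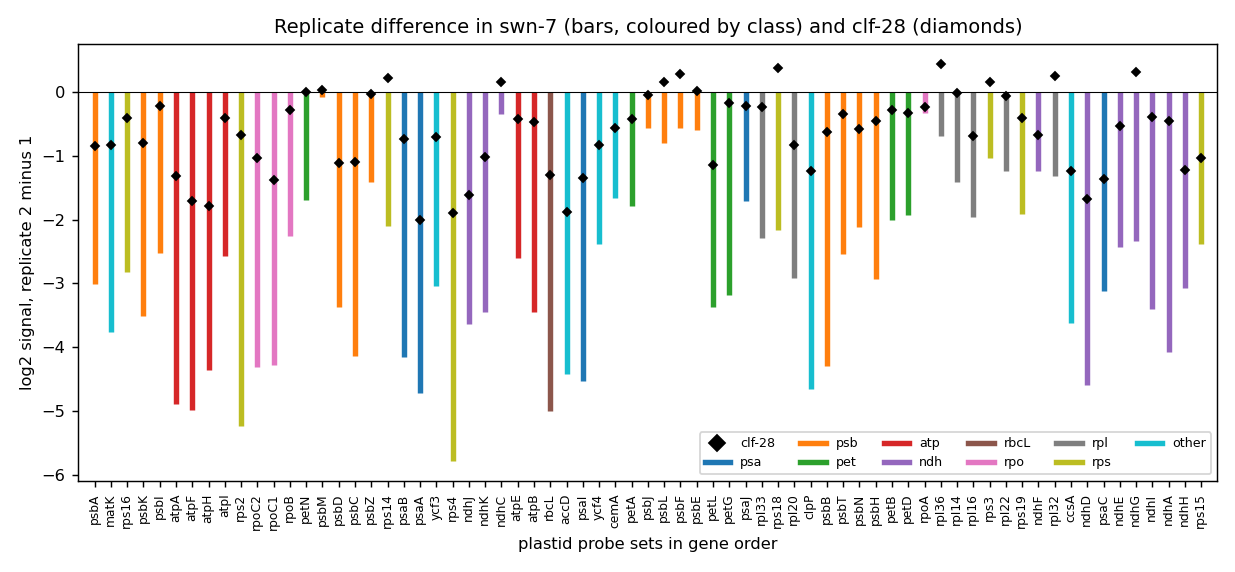
Bars give the log2 signal of replicate 2 minus replicate 1 in swn-7 for the 69 plastid probe sets in genome order, coloured by class, and black diamonds give the same difference in clf-28. All bars lie below 0, from -0.09 for psbM to -5.78 for rps4, with short bars from psbJ to psbE and at rpoA and rpl36.

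Plastid genes also differed between the clf-28 arrays, by less. In clf-28, 57 of 69 were lower on replicate 2 and 21 at least 2-fold lower (0.433% of all tested probe sets), with a median of -0.54 and the lowest value for psaA, a photosystem I reaction-centre subunit. Across the 69 plastid probe sets the replicate differences of clf-28 and swn-7 had a Pearson correlation of 0.81 and a Spearman correlation of 0.82, against a Pearson correlation of 0.22 across all 17332 tested. Each point is a probe set on 4 arrays that share no sample, and probe sets are not independent replicates. In wild type the median difference was -0.43, with 13 genes at least 2-fold lower on replicate 2 (4.15% of all tested) and psbB, a core antenna subunit of photosystem II, lowest at -2.77. Double mutant replicate 2 had a median of 0.24 above replicate 1, with 8 genes at least 2-fold lower and 6 at least 2-fold higher, against 1.96% and 1.24% of all tested. The wild-type and double-mutant differences had a Pearson correlation of 0.58, and those of wild type and swn-7 0.21.

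**Figure D3:**
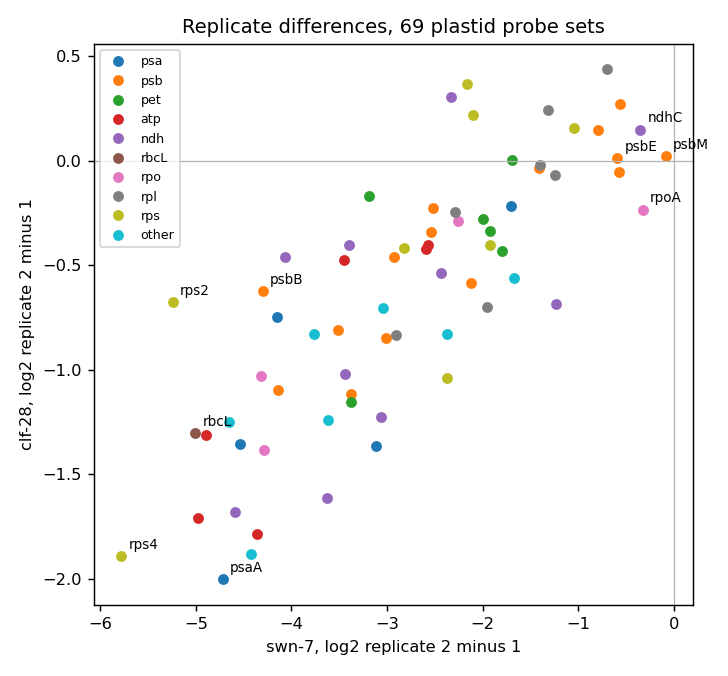
Each point is 1 of the 69 plastid probe sets, with the log2 difference of replicate 2 minus replicate 1 in swn-7 on the horizontal axis and in clf-28 on the vertical axis, coloured by class. Genes lowest in swn-7, such as rps4 and psaA, are among the lowest in clf-28 (Pearson correlation 0.81), while psbM, psbE, ndhC and rpoA lie near 0 on both axes.

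In the double mutant, psbE, psbF, psbL and psbJ fell against wild type, by 1.69-fold to 2.58-fold, and no other plastid probe set passed the test. These 4 are 5.8% of the plastid probe sets, while 21.5% of all tested probe sets were lower and 25.2% higher in the same comparison. The test was limma's moderated test over all 17332 probe sets with Benjamini-Hochberg adjustment at 0.05, two-sided. The median plastid change was -0.64 log2 units, against 0.11 over all tested probe sets, and 54 of 69 changes were negative. Both double-mutant arrays lay below both wild-type arrays for 39 plastid genes (56.5%, against 32.6% of all tested) and above them for 3 (4.35%, against 40.6%). Because the fit shares one spread over all 8 arrays, the gap between the swn-7 arrays enters the standard error (SE) of every comparison, from 0.19 for psbM to 1.64 for rps4. With swn-7 replicate 2 left out, 16 plastid genes were lower and 0 higher at the same threshold (23.2%), where 20.7% of all tested were lower and 23.5% higher, and swn-7 is then 1 array assumed to vary like the others. Without double mutant replicate 1, 0 of the 69 passed. Without wild type replicate 1, psbE alone passed, and with either clf-28 array left out psbE and psbF did.

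**Figure D4:**
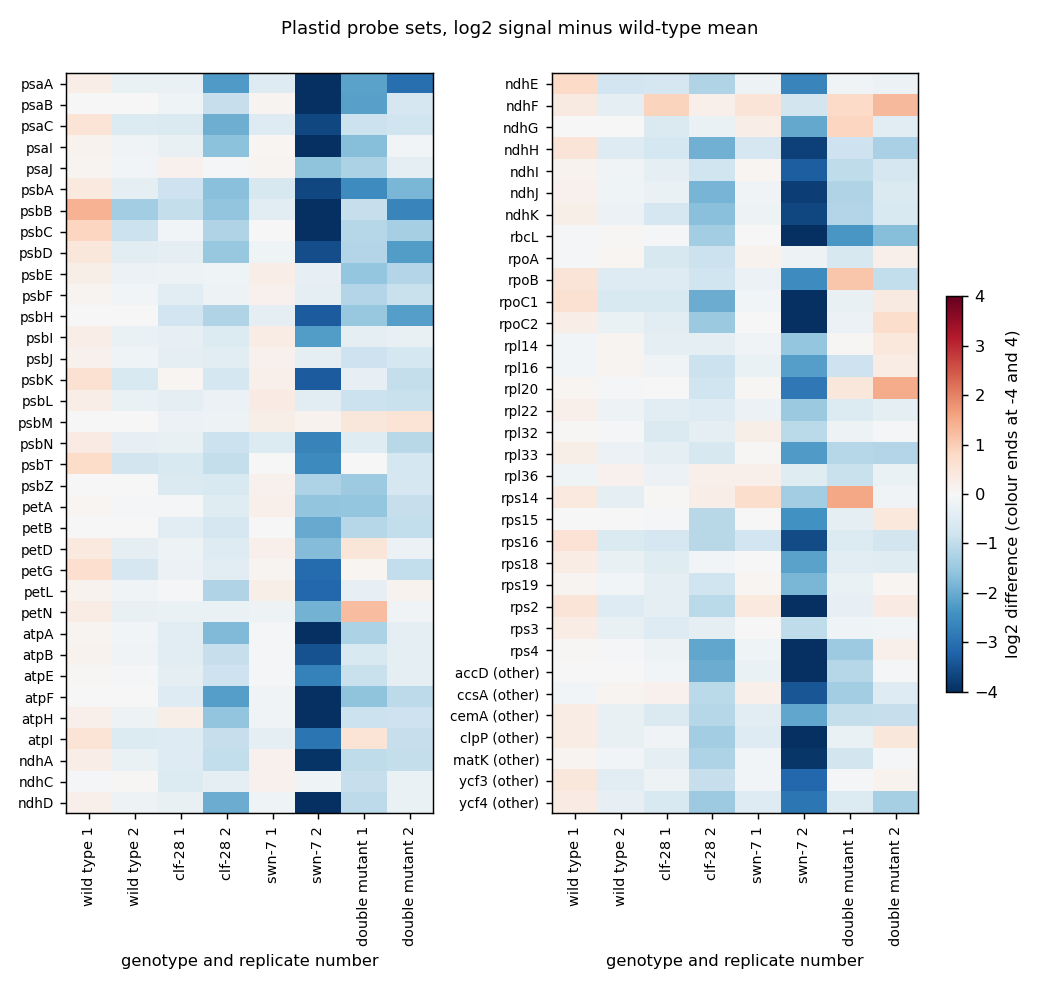
Colour gives log2 signal minus the wild-type mean for each of the 69 plastid probe sets (rows, by class) on each of the 8 arrays (columns, genotype and replicate number), with the colour scale ending at -4 and 4. The column of swn-7 replicate 2 is dark except at psbE, psbF, psbJ, psbL, psbM, ndhC, rpoA, rpl36 and a few paler cells, and the double-mutant columns are blue for most psa and psb genes and near white or red for several rpo, rpl and rps genes.

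The genes psbE and psbF encode the subunits of cytochrome b559 in photosystem II, psbL and psbJ encode small subunits of the same complex, and the 4 form one operon. They were chosen for description after their values were seen. The psbE probe set had signals of 1893 and 1386 in wild type, 1412 and 1424 in clf-28, 1948 and 1291 in swn-7, and 554 and 712 in the double mutant. Both double-mutant arrays were below the other 6, and the change against wild type was -1.37 (SE 0.25, adjusted p = 0.00379 in limma). For psbF the signals were 2828 and 2399.6 in wild type, 1891 and 2284 in clf-28, 2920.0 and 1977 in swn-7, and 1164 and 1402 in the double mutant. Again the double mutant lay below every other array, at a log2 change of -1.03 (SE 0.24, adjusted p = 0.0105 in limma). The psbL probe set read 604 and 420.1 in wild type, 387 and 429 in clf-28, 638 and 367 in swn-7, and 278 and 273 in the double mutant, with a log2 change of -0.87 (SE 0.28, adjusted p = 0.0347 in limma). In psbJ the signals were 1680.0 and 1302 in wild type, 1158 and 1115 in clf-28, 1679 and 1129 in swn-7, and 839 and 918 in the double mutant, with a log2 change of -0.75 (SE 0.22, adjusted p = 0.0277 in limma). In both genes the double-mutant arrays were the lowest, without overlap. The psbE call was lost without double mutant replicate 1 (adjusted p = 0.0587, limma). Signals were also set relative to the median plastid probe set of each array. This scaling subtracts the median signal, not the median change, and took out more than the median fall in the double mutant. The median plastid change against wild type turned positive, so a sign on this scale is not read as a direction. None of the 4 then passed. The changes were -0.39 for psbE (SE 0.82) and -0.05 for psbF (SE 0.84), and psbJ (0.22, SE 0.82) and psbL (0.10, SE 0.78) changed sign. These 4 genes shared little of the drop on swn-7 replicate 2, so the scaling also raised their SE. The effect of losing both genes was set against the sum of both single-mutant effects, and for psbE it was lower by that measure, at -1.14 on the log2 scale. This contrast was added after the values were seen (limma adjusted p = 0.0463), and 31% of all tested probe sets passed in it. Of the 69 plastid probe sets psbE alone passed (1.45%). Most of the others had positive values without passing, such as clpP at 3.68, and swn-7 replicate 2 enters this contrast.

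Among the other photosystem II genes the double-mutant values were mostly lower but spread widely. The class of 15 psb genes had a median of -1.03, and 14 were negative. The psbA gene encodes the D1 reaction-centre protein, which is damaged by light and replaced continuously. Its probe set read 1824 and 1044 in wild type, 774 and 430.1 in clf-28, 892 and 111 in swn-7, and 239.9 and 389 in the double mutant. Both double-mutant arrays were below wild type and clf-28, but not below swn-7 replicate 2, and the change was -2.18 (SE 0.86, adjusted p = 0.0739 in limma). Without swn-7 replicate 2 it passed (adjusted p = 0.00763, limma). The psbM gene, which encodes a small subunit near the contact between the monomers of photosystem II, had the highest change of the class. Its signals were 3848 and 3789 in wild type, 3274 and 3321 in clf-28, 4461 and 4195 in swn-7, and 5237 and 5619 in the double mutant. It was the only plastid gene not lower than its wild-type mean on swn-7 replicate 2, and both double-mutant arrays were above the other 6, with a log2 change of 0.51 (SE 0.19, adjusted p = 0.0640 in limma). Among genes not called with all arrays, psbH was at -1.87, psbB at -1.77 and psbD (the D2 protein) at -1.71. Both double-mutant arrays lay below wild type for psbH and psbD. For psbB the groups overlapped, with signals of 1427 and 210 in wild type and 291 and 87.7 in the double mutant. Without swn-7 replicate 2, 8 of the 15 psb genes were lower, namely psbA, psbD, psbE, psbF, psbH, psbJ, psbL and psbZ, where 20.7% of all tested probe sets were lower in that fit.

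Photosystem I genes were all at lower values in the double mutant, with a class median of -0.92 and none of 5 passing the test. The psaA and psaB genes encode the paired reaction-centre proteins and psaC carries the terminal iron-sulfur clusters. The psaA probe set read 1423 and 969 in wild type, 975 and 243 in clf-28, 825 and 31.3 in swn-7, and 265 and 145 in the double mutant. Its double-mutant arrays were below wild type and clf-28 replicate 1, and clf-28 replicate 2 lay between them. The change of psaA was -2.58 (SE 1.36, adjusted p = 0.158 in limma), the lowest of all 69, and it passed without swn-7 replicate 2 (adjusted p = 0.0222, limma). For psaB the signals were 3915 and 3994 in wild type, 3531 and 2105 in clf-28, 4221 and 237 in swn-7, and 873 and 2458 in the double mutant. Here the double mutant was below wild type but double mutant replicate 2 was above clf-28 replicate 2, at a log2 change of -1.43 (SE 1.17, adjusted p = 0.347 in limma). The psaC signals were 769 and 364 in wild type, 353 and 137 in clf-28, 371 and 42.8 in swn-7, and 291 and 306 in the double mutant, which put both double-mutant arrays below wild type and above clf-28 replicate 2, at a log2 change of -0.83 (SE 0.93, adjusted p = 0.498 in limma).

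The cytochrome b6f genes, which encode the complex between the photosystems, had a class median of -0.28 and 0 of 6 called. The petB gene encodes cytochrome b6 and petA cytochrome f, and both were at lower values in the double mutant. The petB probe set read 4772 and 4723 in wild type, 3579 and 2951 in clf-28, 4662 and 1164 in swn-7, and 2169 and 2401 in the double mutant, with a log2 change of -1.06 (SE 0.55, adjusted p = 0.155 in limma). For petA the signals were 1974 and 1758 in wild type, 1805 and 1338 in clf-28, 2151 and 619 in swn-7, and 639 and 983 in the double mutant, with a log2 change of -1.23 (SE 0.53, adjusted p = 0.0907 in limma). In each gene both double-mutant arrays lay below wild type and both passed without swn-7 replicate 2 (adjusted p = 0.00661 and 0.0116, limma). The small subunit petN differed between the double-mutant arrays, with signals of 67.1 and 43.9 in wild type, 44.8 and 44.8 in clf-28, 46.8 and 14.5 in swn-7, and 129 and 49.4 in the double mutant. Only double mutant replicate 1 was above the wild-type arrays, and its change was 0.56 (SE 0.61, adjusted p = 0.488 in limma).

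ATP synthase genes, which lie in 2 clusters on the plastid genome, had a class median of -0.72 with all 6 values negative and 0 called. The atpB gene (beta subunit, the catalytic one) had signals of 6515 and 5403 in wild type, 4348 and 3133 in clf-28, 5763 and 526 in swn-7, and 3876 and 4573 in the double mutant. The double mutant lay below wild type and above clf-28 replicate 2, with a log2 change of -0.49 (SE 0.93, adjusted p = 0.688 in limma). The membrane subunit atpF had signals of 1302 and 1359 in wild type, 936 and 286 in clf-28, 1216 and 38.6 in swn-7, and 437 and 639 in the double mutant. Both were below wild type at a log2 change of -1.33 (SE 1.38, adjusted p = 0.460 in limma), the lowest of the class. The change closest to 0 was that of atpI, another membrane subunit, with signals of 111 and 51.4 in wild type, 52.7 and 39.9 in clf-28, 59.4 and 5.65 in swn-7, and 110.1 and 40.3 in the double mutant. Its groups overlapped, and the change was -0.18 (SE 0.84, adjusted p = 0.879 in limma).

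Of the 10 ndh genes, whose complex carries electrons around photosystem I, 0 passed and the median was -0.74. The ndhI probe set read 4416 and 3657 in wild type, 3033 and 2296 in clf-28, 4286 and 405 in swn-7, and 2001 and 2547 in the double mutant. The double-mutant arrays were both below wild type, with a log2 change of -0.83 (SE 0.91, adjusted p = 0.484 in limma), and it passed without swn-7 replicate 2 (adjusted p = 0.0320, limma). The ndhH signals were 192 and 92.2 in wild type, 81.1 and 34.7 in clf-28, 83.7 and 1.17 in swn-7, and 75 and 54.2 in the double mutant. The double-mutant arrays were below wild type, with a log2 change of -1.06 (SE 0.92, adjusted p = 0.378 in limma), and swn-7 replicate 2 was under the floor. In ndhF, by contrast, the signals were 32.7 and 20.2 in wild type, 47.1 and 29.4 in clf-28, 36.5 and 15.5 in swn-7, and 43.7 and 63.6 in the double mutant. Both double-mutant arrays lay above wild type, and the log2 change of 1.04 (SE 0.47, adjusted p = 0.106 in limma) was the highest of all 69.

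The rbcL gene, for the large subunit of Rubisco that fixes carbon dioxide, had signals of 718 and 751 in wild type, 693 and 281 in clf-28, 719 and 22.4 in swn-7, and 147 and 225 in the double mutant. Both double-mutant arrays were below wild type, clf-28 and swn-7 replicate 1, and swn-7 replicate 2 was the lowest. The change was -2.01 (SE 1.36, adjusted p = 0.258 in limma), and it passed without swn-7 replicate 2 (adjusted p = 0.0121, limma).

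Genes for the plastid RNA polymerase and the plastid ribosome had values nearer to wild type in the double mutant. The 4 rpo genes had a median of 0.04, the 7 rpl genes -0.26 and the 8 rps genes -0.12, and 0 of these 19 passed. The median over all tested probe sets was 0.11, and differences between classes were not tested. The rpoA gene encodes the alpha subunit and lies in the ribosomal protein cluster. Its signals were 1354 and 1513 in wild type, 922 and 784 in clf-28, 1571 and 1255 in swn-7, and 916 and 1643 in the double mutant. The double mutant overlapped wild type, with a log2 change of -0.22 (SE 0.28, adjusted p = 0.543 in limma), and rpoA was 1 of the 8 genes less than 2-fold apart between the swn-7 arrays. The rpoC2 probe set, for another polymerase subunit, read 247 and 172 in wild type, 149 and 72.9 in clf-28, 207 and 10.4 in swn-7, and 177 and 336 in the double mutant. The double mutant and wild type overlapped, with a log2 change of 0.24 (SE 1.19, adjusted p = 0.886 in limma). The background list of genes read mainly by the nuclear-encoded polymerase had 4 measured members, rpoB, rpoC1, rpoC2 and accD, with a median of 0.04 and 0 called. These same genes were far lower on swn-7 replicate 2, where the differences from replicate 1 were -4.29 for rpoC1 and -4.32 for rpoC2.

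Among ribosomal protein genes, rpl33 (large subunit protein L33) was lowest, with signals of 3681 and 2621 in wild type, 2361 and 1995 in clf-28, 3179 and 649.6 in swn-7, and 1410.1 and 1364 in the double mutant. Both double-mutant arrays were below wild type and both single mutants except swn-7 replicate 2, at a log2 change of -1.16 (SE 0.63, adjusted p = 0.167 in limma), and it passed without that array (adjusted p = 0.00757, limma). The nearby gene rpl20 (L20) was the highest of its class, with signals of 233 and 212 in wild type, 226 and 127 in clf-28, 230.4 and 30.6 in swn-7, and 306 and 625 in the double mutant. The 2 highest arrays were those of the double mutant, with a log2 change of 0.98 (SE 0.84, adjusted p = 0.372 in limma). In the small subunit, rps3 had signals of 2224 and 1485 in wild type, 1261 and 1407 in clf-28, 1832 and 889.9 in swn-7, and 1600.5 and 1673 in the double mutant, with overlapping groups and a log2 change of -0.15 (SE 0.34, adjusted p = 0.744 in limma). The lowest of the class was rps16 with signals of 181 and 82.4 in wild type, 76.2 and 57.1 in clf-28, 72.3 and 10.2 in swn-7, and 82.6 and 73.8 in the double mutant, again overlapping, at a log2 change of -0.64 (SE 0.81, adjusted p = 0.545 in limma). The rps14 signals were 60.8 and 35.5 in wild type, 47.7 and 55.6 in clf-28, 75.8 and 17.6 in swn-7, and 136 and 42 in the double mutant, where only double mutant replicate 1 was above wild type, at a log2 change of 0.70 (SE 0.75, adjusted p = 0.474 in limma).

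The 7 other plastid genes had a median of -0.62. The clpP gene, for a protease subunit, had signals of 3137 and 2124 in wild type, 2348 and 989 in clf-28, 1824 and 72.8 in swn-7, and 2160.3 and 3521 in the double mutant. The double mutant overlapped wild type at a log2 change of 0.10 (SE 1.28, adjusted p = 0.961 in limma), while swn-7 replicate 2 was the lowest array. The ccsA gene, whose product attaches haem to c-type cytochromes, had signals of 2048 and 2346 in wild type, 2453 and 1039.8 in clf-28, 2512 and 205 in swn-7, and 839 and 1532 in the double mutant. Neither double-mutant array reached the wild-type values, with a log2 change of -0.95 (SE 1.03, adjusted p = 0.479 in limma). The other 5 ranged from -0.95 for cemA, an envelope membrane protein, to 0.05 for ycf3, an assembly factor of photosystem I.

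**Figure D5:**
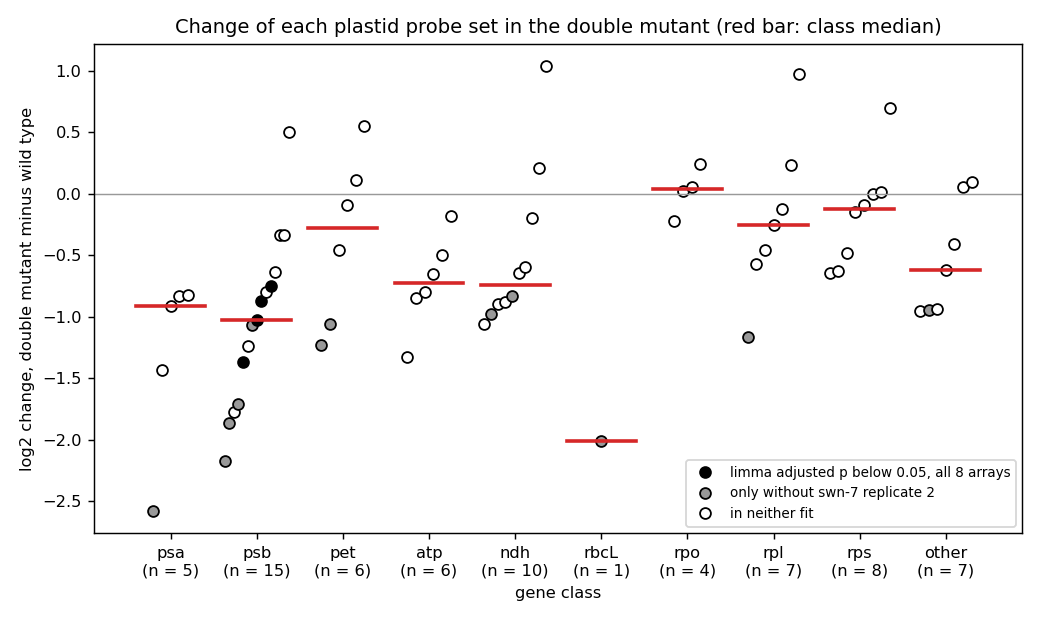
Each point is the log2 change of 1 plastid probe set in the double mutant against wild type (vertical axis), by class with the number of genes below; red bars are class medians. Filled points (psbE, psbF, psbL, psbJ) passed the limma threshold with all 8 arrays, grey points passed only without swn-7 replicate 2, and the medians run from -2.01 for rbcL and -1.03 for psb to 0.04 for rpo.

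Scaled to the median plastid probe set of each array, 8 genes passed in the double mutant against wild type, which shows unequal change among plastid genes and not its absolute direction. Of all tested probe sets 21.5% were lower and 25.3% higher in that fit. The psbA gene was lower by this measure, at -1.20 (limma adjusted p = 0.00694). The 7 higher ones were rpl20 at 1.95, ndhF at 2.01, rpoC2 at 1.22, clpP at 1.07, ycf3 at 1.03, petL (a small cytochrome b6f subunit) at 0.88 and matK (an intron maturase) at 0.57. The median plastid change was itself positive on this scale, so higher does not mean above the median change. Adjacent genes tended to have like changes: the double-mutant change differed by a median of 0.39 log2 units over the 64 adjacent pairs, against 0.66 over all pairs of plastid genes.

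Against each single mutant, psbE and psbF fell in the double mutant and few other plastid genes passed. Against clf-28, psbE was at -1.18 (SE 0.25, limma adjusted p = 0.00779) and psbF at -0.70 (SE 0.24, adjusted p = 0.0474), and psbM rose by 0.72 (SE 0.19, adjusted p = 0.0190). These are 2 lower and 1 higher of 69, where 21.7% and 23.3% of all tested probe sets were, and the plastid median was 0.18 against 0.09. Without swn-7 replicate 2 the count was 7 (petA, psbE, psbF and psbH lower, and psbM, rpl14 and rpl20 higher; 42.5% of all tested passed), and with either clf-28 array left out it was 0. Against swn-7, psbE, psbF, psbL and psbJ were lower, with psbE at -1.34 (limma adjusted p = 0.00421), where 20.6% of all tested were lower and 24.8% higher. The plastid median was 0.89 with both swn-7 arrays and -0.49 against swn-7 replicate 1 alone, where 11 genes were lower (16.3% of all tested). Without swn-7 replicate 1, so with the low array alone, 1 gene was lower (psbE) and 53 were higher, where 16.4% and 18.2% of all tested were, and the median was 2.45. Of the 4 genes called with both swn-7 arrays, psbE alone was among these 54. Without double mutant replicate 1 none of the 69 passed, and with double mutant replicate 2 or either clf-28 array left out 2 did. These comparisons share the double-mutant arrays with the one against wild type.

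In clf-28 no plastid gene passed the test against wild type, although most values were lower. The count was 0 of 69 by limma, where 0.121% of all tested probe sets passed, and rpoA was the 1 plastid gene at an unadjusted p under 0.05, where 12.5% of all tested were. Its change was -0.75, with an adjusted p of 0.355. The plastid median was -0.62 against 0.00 over all tested, 66 of 69 values were negative, and both clf-28 arrays lay below both wild-type arrays for 40 genes (58%, against 21.8% of all tested). Class medians were between -0.34 for pet and -0.96 for psa. With clf-28 replicate 1 alone the median was -0.39 and with replicate 2 alone -0.91.

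In swn-7 likewise no plastid gene passed against wild type, and the direction rested on 1 array. The count was 0 of 69 by limma, where 0% of all tested probe sets passed. At an unadjusted p under 0.05 there were 6 plastid genes (cemA, ndhH, psbA, psbN, rps16 and ycf4), or 8.7%, and 12.2% of all tested. The plastid median was -1.49 with both arrays, -0.03 with replicate 1 alone and -2.90 with replicate 2 alone. Both swn-7 arrays lay below both wild-type arrays for 19 genes (27.5%, against 21.8% of all tested).

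Most of the measured nuclear genes for partner subunits of these complexes and for factors related to them fell in the double mutant. The lists were searched by symbol, with alternative spellings for some genes, so the numbers of names are not numbers of genes. Few of their members are named in the annotation used here. In this comparison 21.5% of all tested probe sets were lower and 25.2% higher. For photosystem I, 2 of 19 names were measured and both fell, PSAN at a log2 change of -4.36 and PSAE-1 at -4.06. For photosystem II, 3 of 19 were measured and all 3 fell, PSBY at -3.64, PSBW at -2.48 and PSB27 at -1.77. In the light-harvesting antenna LHCB4.1 and LHCB4.2 (-5.19) fell, while LHCB4.3 (2.24) rose. The ATP synthase gamma subunit ATPC1 fell (-2.71), and the change of ATPC2 was 0.67 (limma adjusted p = 0.0709). The list for the NADH dehydrogenase-like complex is not limited to subunits. All 5 of its genes measured fell, from NdhL at -4.60 to CRR41 at -0.85. Of 3 RNA editing genes of the list of plastid RNA processing factors, CRR21 fell (-0.80), and CRR22 and CRR28 did not pass. For the lists of polymerase partners and sigma factors, Rubisco small subunits and plastid ribosomal proteins 0 members are named, so they were not analysed here. In clf-28 and in swn-7 against wild type, 0 of the measured members of these lists passed. The difference between nuclear and plastid subunits was not tested.

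Cell type markers differed in the double mutant as well. The summed signal of the 4 green-tissue markers measured of 9 was 13779 and 13234 in wild type, 11483 and 10599 in clf-28, and 14501 and 11055 in swn-7. In the double mutant it was 762 and 1173, and all 4 markers fell, with a median of -3.82. The summed signal of the 3 seed and embryo markers measured of 7 lay between 10.1 and 84.0 on the other 6 arrays, where BBM, an embryo regulator, was at most 2.02. It was 6765 and 5652 in the double mutant, and the oil body protein gene OLEO3 and the storage protein gene PAP85 rose. BBM read 66.8 and 54.6 there and was under the floor on the other 6 arrays. It entered the test only through the double mutant, so only its signals are described. The root-hair marker EXPA7, 1 of 6 root names, was between 12.1 and 46.1 in the other genotypes and below the floor in the double mutant, and 0 of 4 meristem and callus names are in the annotation. The part of these markers in the plastid values was not tested.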

How the data were processed

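Affymetrix ATH1 arrays were used for 8 samples, 2 for each of 4 genotypes, grouped and numbered as the labels give them. The deposited values are intensities on a linear scale, 1 signal per probe set and array. The submitters' processing notes name MAS5 and GCOS, without versions. Because the 2% trimmed mean was equal on all arrays, no scaling was added. The number of arrays limits the precision. Signals under 10% of the trimmed mean (10.0) were set to that floor, log2 was taken and the 64 control probe sets were left out. Probe sets above the floor on at least 2 arrays were tested (17332 of 22746) with limma 3.58.1 in R 4.3.3 (lmFit, eBayes with trend, 1 mean per genotype, 4 residual and 3.43 prior degrees of freedom), two-sided, with Benjamini-Hochberg adjustment over all tested probe sets and a threshold of 0.05. Only plastid probe sets are reported. The members and lists were chosen with earlier results of these data known. Genes came from the platform's annotation, updated through RefSeq tables of assembly TAIR10.1, used for names and neighbour order only. In each class the gene with the highest mean log2 signal and those with the lowest and highest change in the double mutant are named, besides all called in a single mutant. The 4 called in the double mutant were added after their values were seen, and other plastid genes are given as examples. The fit was tested on simulated data: with 50 of the 17332 probe sets changed at each size, 17 were called at a log2 change of 1, 40 at 2, 44 at 3 and 50 at 4 in the double mutant against wild type, with 6 false calls. Alternatives were other floors, filters, scalings, limma settings, the replicate number as a block, each pair of genotypes fitted alone, and each array left out in turn. Detection calls, genome coordinates and sequences were not used here.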

Additional observations from a re-analysis of the deposited data

Results flagged for a closer look

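The psbE transcript was picked out because its change in the double mutant differed from the sum of the single-mutant changes. The effect of both mutations minus the summed effects of each was -1.14 on the log2 scale (limma adjusted p = 0.0463), a contrast added after the values were seen, in which 31% of all tested probe sets passed. Of the 69 plastid probe sets psbE alone passed (1.45%). The signals of psbE were 554 and 712 in the double mutant and between 1291 and 1948 on the other 6 arrays. Groups of 2 arrays are too small for a test of single outlying arrays, so the low values of swn-7 replicate 2 were not tested as outliers.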

How the results depend on the processing

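The counts of plastid probe sets called were small and moved with the settings, while no setting called any plastid gene in clf-28 or in swn-7 against wild type. In the double mutant against wild type the 4 calls became 2 without a filter, 2 with array weights, 15 with the compared arrays alone and 8 after centring on the plastid median of each array, and leaving out 1 array gave 0 to 16. Against clf-28 the 3 calls became 1 without a filter, 6 with the compared arrays alone and 7 after centring, and 0 to 7 when 1 array was left out. Against swn-7 the 4 calls became 7 with no floor, with a constant of 16 added or with probe sets above the floor on all 8 arrays, 2 without the intensity trend or with array weights, 1 without a filter or with the compared arrays alone, 8 after centring, and 0 to 54 when 1 array was left out. Of all tested probe sets 28.6% to 48.4% were called in these 3 comparisons under the same settings. Centring turned the plastid medians to 0.31 in clf-28, 0.54 in swn-7 and 0.34 in the double mutant against wild type, and the changes of psbJ to 0.22 and psbL to 0.10. It subtracts the median signal of the plastid genes on each array, which moved the changes by more than their median. Leaving out 1 array gave medians from -0.91 to -0.39 in clf-28, from -2.90 to -0.03 in swn-7 and from -0.90 to -0.39 in the double mutant against wild type. The median of the double mutant against clf-28 was -0.25 without clf-28 replicate 2 and 0.45 without clf-28 replicate 1, and against swn-7 it ran from -0.49 to 2.45. Over all named results and alternatives 616 of 670 kept their side of the threshold, 18 of them with a changed sign and no call in either setting, while 19 lost the call, 33 gained one and 2 reversed. The replicate numbers were not taken to pair the samples, since correlations of their deviations over all tested probe sets ran from -0.08 to 0.22. Over the 69 plastid probe sets alone they ran from -0.31 (clf-28 and double mutant) to 0.58 (wild type and double mutant) and 0.81 (clf-28 and swn-7). With the replicate number as a block the double mutant had 5 calls against wild type, 2 against clf-28 and 6 against swn-7. The array weights were equal for both arrays of a genotype (1.13 in swn-7), so that setting could not lower the weight of swn-7 replicate 2 alone. With 2 arrays per genotype a change of 1 log2 unit was recovered in 17 of 50 simulated probe sets. Few probe sets were changed in that simulation, while 46.7% of all tested passed in the double mutant against wild type. The adjustment therefore acts differently there, and the share recovered does not carry over to these comparisons.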

Other observations

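Mitochondrial-encoded transcripts, measured on the same arrays, were higher in the double mutant than in wild type for several probe sets. They were matched by symbol, a choice made after seeing the data because the gene identifiers of the annotation had changed, which gave 18 probe sets of subunits of the respiratory chain and an intron maturase, 13 of them tested. The genes nad1 and nad5 have several of these probe sets each, so the counts are not counts of genes. In the double mutant against wild type 6 of the 13 probe sets rose and 0 fell by limma, where 25.2% of all tested rose. The median of the 13 was 1.05. The cox1 signal, for cytochrome oxidase subunit 1, was 92.5 and 67.6 in wild type, 65.6 and 60.2 in clf-28, 79.7 and 45.9 in swn-7, and 252 and 217 in the double mutant, where both arrays were above the other 6. The nad9 signal, for a subunit of complex I, was 36.5 and 29.5 in wild type, 20.3 and 14.1 in clf-28, 25.5 and 22.1 in swn-7, and 141 and 117 in the double mutant, again the 2 highest. Relative to the wild-type mean, the median of the 13 tested mitochondrial probe sets was -0.79 on swn-7 replicate 2 and -0.82 on clf-28 replicate 2, against -2.90 and -0.91 for the plastid probe sets. On each of these arrays 3 of the 13 were at the floor, which limits how low they can read.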
